A study of Rattus norvegicus with 6 samples.

Results

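Pmp22, which encodes peripheral myelin protein 22, was examined together with 7 other genes: the Schwann cell and myelin genes Mbp, S100b, Sox10 and Ngfr, and the epithelial membrane protein genes Emp1, Emp2 and Emp3, which belong to the same gene family as Pmp22. All 8 were on the array, out of 14217 genes with a symbol of their own, and they were read by 13 of the 31042 probe sets that were not array controls. Probe sets were selected on mean signal across the 6 arrays, the brightest 1 standing for its gene, so levels are given as a description. The genes themselves were chosen by name, with earlier results of this comparison known, so the tests below describe them and are not independent evidence.

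The study asked how soft tissue that healed around a dental implant differs from mucosa that healed over an empty socket. Male Sprague Dawley rats, an outbred strain, were 4 weeks old when both upper first molars were extracted, and a titanium alloy implant was put into the left socket alone. After 4 further weeks the peri-implant soft tissue, from sites with extraction and an implant, was collected on the left, and oral mucosal tissue, from sites with extraction only, on the right. Each group held 3 arrays, and both groups came from extraction sites. Side of the mouth and implant cannot be told apart. Whether a group's arrays hold different rats is not stated, nor whether both tissues came from the same rats. The p-values therefore cover only how far these samples scatter, without pairing, and that scatter may be technical.

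Schwann cells wrap peripheral axons. In myelinating Schwann cells Pmp22 encodes a tetraspan protein of compact myelin and Mbp encodes the basic protein that holds the cytoplasmic faces of the sheath together. S100b, Sox10 and Ngfr mark the Schwann cell lineage, and Sox10 is the transcription factor on which that lineage depends. Outside nerve, Pmp22 and the Emp genes are expressed in epithelia and connective tissue, and Mbp shares its locus with the golli transcripts, which are found in leukocytes and other cells. A level of Pmp22, Mbp or Emp mRNA in mucosa therefore does not by itself mark nerve.

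Values are log2 signals as deposited. Median signal was 6.62 to 6.78 per array, and 58.3% to 62.4% of probe sets on an array exceeded 5.90, the 40th percentile of all values, below which a group mean is called dim. Probe sets were tested with limma when their mean exceeded 5.68. Differences are peri-implant minus mucosa on the log2 scale. The samples were rich in keratinocyte and fibroblast signal: Krt5 stood at 15.18 in peri-implant tissue and 15.69 in mucosa, and Col1a1 at 12.34 and 13.17. Of the members, 5 passed the filter and 3 (S100b, Sox10 and Ngfr) did not, the nearest being Ngfr with a mean of 5.43.

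Pmp22 signal was 5.83-fold lower in peri-implant tissue, the largest difference among the 5 members bright enough to test. Mbp and Emp3 were also lower, by 0.85 and 0.74, whereas Emp1 and Emp2 did not pass the test. The Schwann cell markers Sox10 and S100b, neither exclusive to that lineage, were dim on all 6 arrays. Ngfr was dim in mucosa, with 4 of its 6 values below the dim floor. In all, 3 of 5 tested members were lower and 0 higher, where 11.0% of all 10585 tested genes were lower and 15.2% higher. The median difference of the 5 was -0.74, beside 0.03 for all tested genes. The groups did not overlap for 3 of the 8 members, beside 35.1% of all named genes. That count was 5 when mucosal array 1 was left out and 5 when mucosal array 3 was left out. Fewer arrays separate more readily, and the share over all named genes was not computed for those fits.

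**Figure D1:**
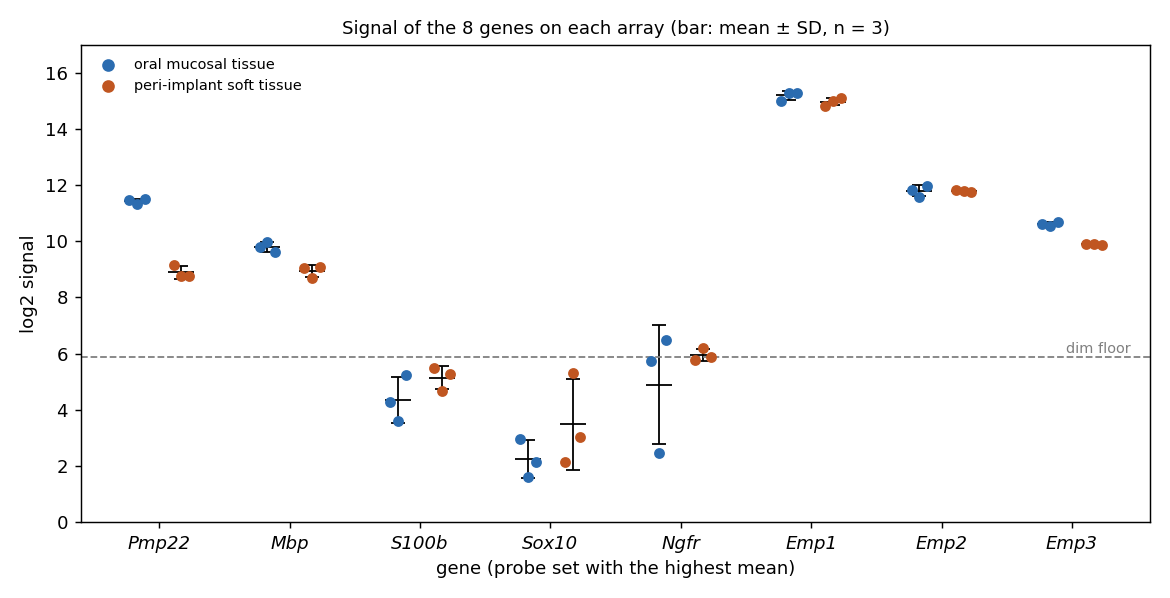
Log2 signal of the 8 genes on each array (points), with mean and SD of 3 arrays per group, for the brightest probe set per gene. The dashed line is the dim floor of 5.90: Pmp22, Mbp and Emp3 separate the groups above it, and S100b and Sox10 lie below it on all 6 arrays.

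In mucosa Pmp22 read 11.47, 11.34 and 11.50 on arrays 1 to 3, and in peri-implant tissue 9.15, 8.77 and 8.76. Every peri-implant array was at least 2 log2 units below every mucosal array, and the arrays within a group lay far closer together than the groups. The means were 8.89 ± 0.22 and 11.44 ± 0.08 (SD, n = 3 each), a difference of -2.54 (SE 0.11, 95% interval -2.78 to -2.31, limma adjusted p = 3.29e-09). Of the 10585 tested genes, 17 had a difference this low or lower, Pmp22 included. The second Pmp22 probe set gave 9.64, 9.44 and 9.49 in mucosa and 7.85, 7.73 and 8.02 in peri-implant tissue. It showed the same order of the groups with a smaller step, -1.65 (SE 0.14, limma adjusted p = 1.52e-06). With both probe sets averaged the difference was -2.10, and under all 14 alternatives Pmp22 stayed lower and past the threshold.

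To set the family member with the largest difference beside the one with the smallest, the 250 bases before the start of each gene are shown, as given by RefSeq for GRCr8, read 5′ to 3′ on the plus strand. The Pmp22 stretch is chr10:48294682-48294931 and the Emp2 stretch is chr10:5866619-5866868, and each ends where the annotated gene begins. Capitals mark matches, on either strand, to the AP-1 motif (TGANTCA), the TEAD motif (GGAATG), the GC box (GGGCGG), the TATA box (TATAAA) or the CCAAT box (CCAAT).
Pmp22: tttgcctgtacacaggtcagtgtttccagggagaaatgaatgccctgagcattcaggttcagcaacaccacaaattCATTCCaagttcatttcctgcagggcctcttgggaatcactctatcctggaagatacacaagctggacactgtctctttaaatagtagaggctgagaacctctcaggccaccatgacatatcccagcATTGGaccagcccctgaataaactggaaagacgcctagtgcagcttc
Emp2: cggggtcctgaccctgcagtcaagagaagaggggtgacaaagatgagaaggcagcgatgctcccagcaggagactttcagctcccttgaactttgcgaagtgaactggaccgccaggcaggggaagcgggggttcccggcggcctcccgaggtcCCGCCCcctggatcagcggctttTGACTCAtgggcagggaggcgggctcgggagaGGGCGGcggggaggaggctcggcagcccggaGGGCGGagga
The Pmp22 stretch held 1 TEAD match and 1 CCAAT match, and the Emp2 stretch 1 AP-1 match and 3 GC boxes. No matches overlapped. Of 33469 windows of the same length before annotated gene starts, 12.1% held the TEAD motif, 34.0% the CCAAT box, 6.34% the AP-1 motif, 30.5% the GC box and 12.9% the TATA box. GC content was 48.0% for Pmp22 and 67.2% for Emp2, beside a median of 51.2% over all windows. A match is a description of the letters and not a binding site. Pmp22 is known to be transcribed from more than 1 start, and only the start in this table was read.

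The Emp genes encode tetraspan membrane proteins related to Pmp22. Emp3 read 10.63, 10.55 and 10.68 in mucosa and 9.89, 9.90 and 9.86 in peri-implant tissue. The groups were separate, with almost no spread within the peri-implant arrays. The difference was -0.74 (SE 0.08, limma adjusted p = 2.14e-05), or 1.66-fold lower, and it was called under all 14 alternatives.

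Emp2 did not differ beyond the spread between arrays. It read 11.83, 11.58 and 11.96 in mucosa and 11.82, 11.78 and 11.74 in peri-implant tissue, so the peri-implant arrays lay inside the mucosal range. The difference was -0.01 (95% interval -0.21 to 0.19, limma adjusted p = 0.934), so the interval spans small changes in both directions. Its second probe set gave -0.15 (95% interval -0.43 to 0.12, limma adjusted p = 0.435).

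The probe sets of Emp1, a gene of squamous epithelia, disagreed in size. The brighter one read 15.01, 15.29 and 15.27 in mucosa and 14.83, 14.99 and 15.09 in peri-implant tissue, with overlapping groups. Its difference was -0.22 (SE 0.11, limma adjusted p = 0.179). This probe set came within 1.19 of the highest signal on its array, and whether signals so near the top are compressed was not tested. The dimmer one read 10.29, 10.23 and 10.22 against 9.41, 9.55 and 9.68, and these groups did not overlap. Its difference was -0.70 (SE 0.10, limma adjusted p = 1.43e-04). With the mean of both the difference was -0.46 and passed (limma adjusted p = 0.00182).

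Mbp differed between its probe sets as well. The brightest read 9.78, 9.98 and 9.62 in mucosa and 9.04, 8.70 and 9.10 in peri-implant tissue. All mucosal arrays lay above all peri-implant arrays, with a difference of -0.85 (SE 0.13, limma adjusted p = 4.48e-04), or 1.80-fold lower. A second probe set ran the other way without passing, at 7.07, 6.80 and 7.13 in mucosa and 7.23, 7.28 and 7.20 in peri-implant tissue (difference 0.24, SE 0.24, limma adjusted p = 0.534). There all peri-implant arrays lay above all mucosal arrays. The third was dim on all 6 arrays, from 2.48 to 5.89, and was not tested. With the mean of the 3 probe sets Mbp gave -0.44 and was no longer called (limma adjusted p = 0.443). Which Mbp transcripts each probe set reads is not given in the sources used here, so golli and myelin transcripts cannot be told apart.

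**Figure D2:**
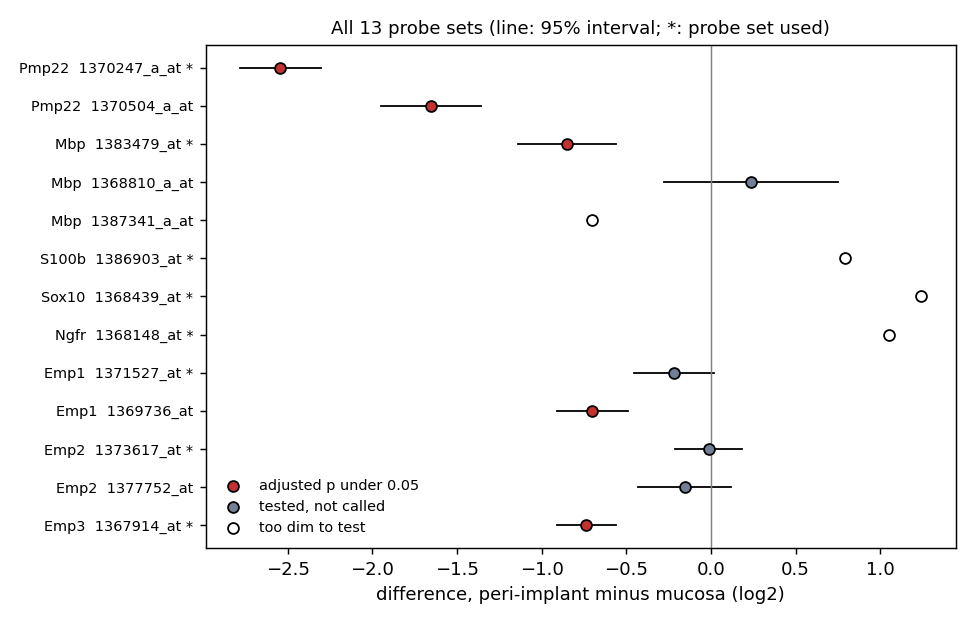
Difference between peri-implant tissue and mucosa for all 13 probe sets of the 8 genes, on the log2 scale, with 95% intervals where tested. Both Pmp22 probe sets lie left of -1.5, the Emp1 and Mbp probe sets disagree, and open points were too dim to test.

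Sox10 read 2.98, 1.63 and 2.14 in mucosa and 2.16, 5.30 and 3.02 in peri-implant tissue. All 6 values were dim, the groups overlapped, and the difference of 1.24 was 0.34 without peri-implant array 2. S100b, a calcium-binding protein of glia that is also found in adipocytes and melanocytes, read 4.26, 3.59 and 5.23 in mucosa and 5.49, 4.68 and 5.29 in peri-implant tissue. It was dim on all 6 arrays and the groups overlapped. Its difference of 0.79 became 0.41 without mucosal array 2 and 1.22 without mucosal array 3. Ngfr, the low-affinity neurotrophin receptor p75, read 5.75, 2.48 and 6.48 in mucosa and 5.76, 6.20 and 5.89 in peri-implant tissue. Mucosal array 2 stood apart: without it the difference of 1.05 became -0.16. With dim values raised to the floor the differences were 0 for Sox10, 0 for S100b and -0.09 for Ngfr. With no filter on signal none of these 3 genes was called (limma adjusted p = 0.587, 0.619 and 0.549). At signals this dim no difference in these markers was detected, and how large a difference would have been seen was not tested.

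Genes of the same pathways were read from 5 lists with 70 entries, of which 9 had no probe set matched to them alone and were not analysed here. Without the members, 61 genes were measured and 38 passed the filter. Of these 8 were higher, 9 lower and 21 not called. The share called was 26.1% over all tested genes, in either direction. The median difference of the 38 was 0.01. The count of 17 called genes became 11 with the mean of all probe sets per gene and 13 without the variance trend. Of the 61, 36.1% were dim in both tissues, beside 24.0% of all named genes.

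Myelin proteins and lipid enzymes were mostly dim: of 14 measured, 10 were dim in both tissues and 4 were tested, with 2 higher and 0 lower. Cnp, a phosphodiesterase of myelinating glia that other cells also express, read 9.08, 8.67 and 8.93 in mucosa and 9.98, 10.07 and 9.74 in peri-implant tissue, higher by 1.03 (SE 0.13, limma adjusted p = 6.92e-05). Mal, a raft protein of myelin and of apical epithelial transport, was higher by 1.25 (SE 0.18, limma adjusted p = 2.29e-04). Fa2h, which hydroxylates sphingolipid fatty acids in myelin and epidermis, stood at 7.93 against 7.64 and did not pass. Mag, the myelin-associated glycoprotein, averaged 5.42 in peri-implant tissue and 4.29 in mucosa, dim in both. The summed linear signal of this list was 2005 to 2113 in peri-implant tissue and 1235 to 1290 in mucosa. Cnp and Mal, the brightest genes of the list, make up much of this sum and set its direction. It therefore does not show a rise of the myelin genes as a set. Both called genes thus ran opposite to Pmp22 and to the brightest Mbp probe set.

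Of 8 tested transcription regulators of Schwann cells 2 were higher and 1 lower. Pou3f1 (Oct6), which drives the promyelinating stage and is also active in keratinocytes, read 6.79, 7.49 and 7.04 in mucosa and 8.59, 8.74 and 8.60 in peri-implant tissue, higher by 1.54 (SE 0.21, limma adjusted p = 1.30e-04). Sox2, a factor of immature Schwann cells and of oral epithelium, was higher by 0.75 (SE 0.09, limma adjusted p = 3.12e-05), and with the mean of its probe sets its call was lost (limma adjusted p = 0.560). The other Sox2 probe sets read 0.71 (called higher), 0.48 (not called) and -0.56 (too dim to test). Jun, a factor of repair Schwann cells and of many other cells, fell by 0.30 (SE 0.07, limma adjusted p = 0.00721). It was not called without the variance trend or with the mean of its probe sets (highest limma adjusted p = 0.189). Egr2 (Krox20), which switches on myelin genes and is also an immediate early gene elsewhere, read 4.63, 5.42 and 2.65 in mucosa, all dim, and 6.98, 6.51 and 6.78 in peri-implant tissue. The groups did not overlap. Its mean lay below the filter, so it was not tested, and with the floor the difference of 2.52 became 0.86.

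Among surface and signalling genes of Schwann cells, 1 of 9 tested was higher and 1 lower, and 8 of 17 measured were dim in both tissues. Nrg1, the neuregulin that sets myelin thickness when presented by axons and that epithelia and fibroblasts also make, read 9.38, 9.17 and 9.50 in mucosa and 8.45, 8.31 and 8.31 in peri-implant tissue. It fell by 0.99 (SE 0.13, limma adjusted p = 1.06e-04). Of its other probe sets bright enough to test, 2 were called lower and 1 was not called. Erbb2, the co-receptor for neuregulins, was higher by 0.49 (SE 0.10, limma adjusted p = 0.00325). Erbb3, the neuregulin-binding receptor of Schwann cells, stood at 6.62 ± 0.47 against 6.59 ± 0.71 (SD, n = 3 each; limma adjusted p = 0.976). Gap43, a growth-associated protein of axons and immature Schwann cells, stood at 6.74 against 6.15 (limma adjusted p = 0.250), and the artemin receptor Gfra3 at 7.02 against 5.89 (limma adjusted p = 0.0732).

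Ligands and partners of Ngfr moved both ways, with 3 of 11 tested genes higher and 2 lower. Bdnf, a neurotrophin that binds Ngfr and TrkB, read 9.01, 9.15 and 9.07 in mucosa and 7.96, 7.89 and 7.73 in peri-implant tissue. It fell by 1.21 (SE 0.14, limma adjusted p = 3.54e-05), and its call was lost with the mean of its probe sets (limma adjusted p = 0.0633). The other Bdnf probe set was too dim to test and read -1.22. Ntrk2, which encodes TrkB, read 7.74, 8.20 and 6.85 in mucosa and 9.38, 9.24 and 8.98 in peri-implant tissue, higher by 1.60 (SE 0.27, limma adjusted p = 7.83e-04). With the mean of its probe sets, which was too dim to test, the difference was 0.93. Of its other probe sets 1 was called higher and the dim ones read 2.52, -0.09 and -0.74. Lingo1, a co-receptor of Ngfr in the Nogo receptor complex, fell by 1.78 (SE 0.22, limma adjusted p = 5.27e-05). Its other probe sets were too dim to test and read 0.22 and -0.03, and the mean of all 3 gave -0.53. The adaptors Bex3 and Maged1, which bind the intracellular part of Ngfr, were higher by 0.73 and 0.43. The call for Bex3 was lost with the mean of its probe sets (limma adjusted p = 0.118) and Maged1 was not called without that trend term in the variance (limma adjusted p = 0.0506).

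Relatives of Pmp22 and the laminin receptors with which it is known to associate were lower in 5 of 6 tested genes and higher in 0. Tmem47, a tetraspan protein of cell junctions, read 9.08, 9.36 and 9.18 in mucosa and 7.81, 8.07 and 7.99 in peri-implant tissue, and fell by 1.25 (SE 0.14, limma adjusted p = 3.01e-05). Itga6, the integrin α6 chain of hemidesmosomes and of Schwann cells, fell by 1.03 (SE 0.07, limma adjusted p = 2.96e-07), and its partners Itgb1 and Itgb4 fell by 0.50 and 0.45. Without the variance trend Itgb4 was not called (limma adjusted p = 0.0588). Perp, a desmosomal tetraspan protein, fell by 0.47 (SE 0.15, limma adjusted p = 0.0449). Its groups overlapped, it was not called in 7 of 14 alternatives (limma adjusted p up to 0.182), and it came within 0.58 of the highest signal on its array. The other Perp probe set fell by 0.61 (limma adjusted p = 0.00779), and the mean of both gave -0.54 (limma adjusted p = 0.0311). Dag1, dystroglycan, stood at 10.60 against 10.39 and did not pass. The list overlaps with epithelial adhesion genes and was written with falls of such genes in these data known.

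**Figure D3:**
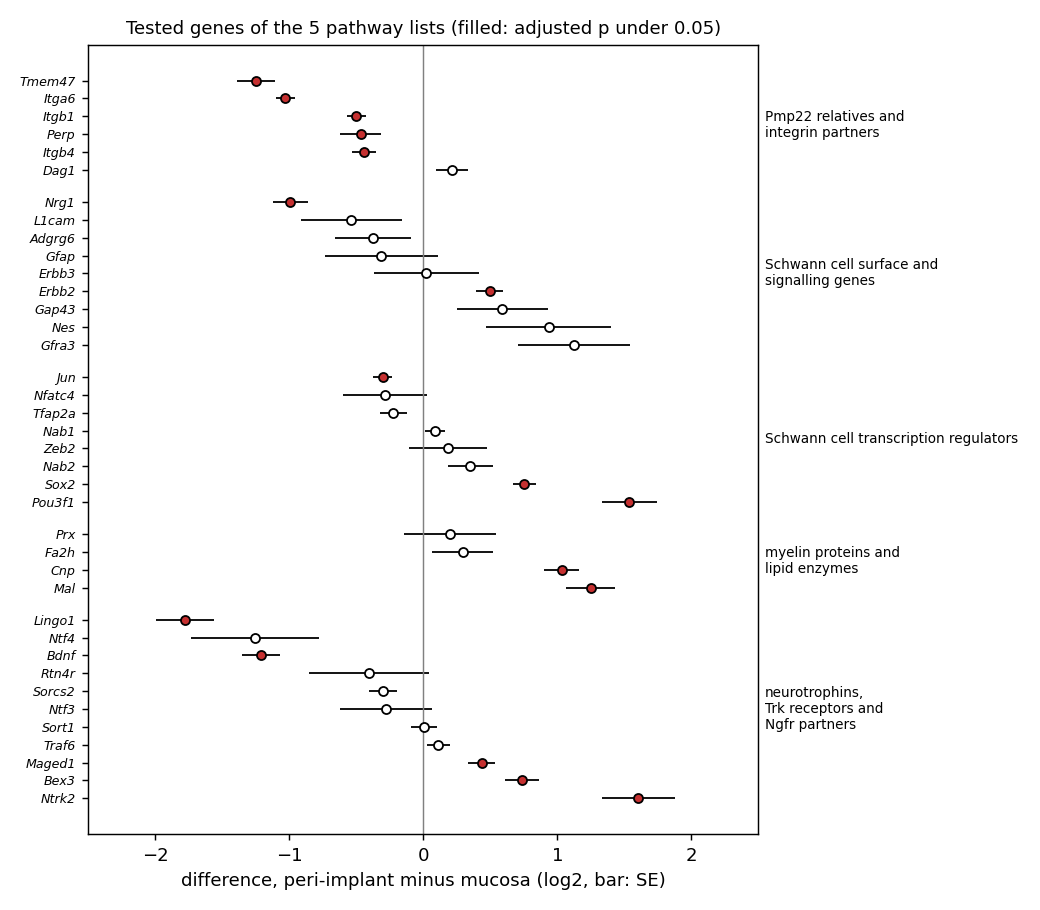
Difference between peri-implant tissue and mucosa on the log2 scale, with its SE, for each tested gene of the 5 pathway lists. Filled points passed an adjusted p of 0.05: 5 of 6 relatives and partners of Pmp22 lie to the left, and the called myelin genes Cnp and Mal lie to the right.

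Axon markers were measured to see whether nerve signal moved with the members. Of 16 axon and neuron genes 10 were dim in both tissues, and 1 of 6 tested was higher and 1 lower. Tubb3, a neuronal tubulin also made by other cells, read 10.99, 10.87 and 11.02 in mucosa and 9.59, 9.34 and 9.28 in peri-implant tissue, and fell by 1.55 (SE 0.10, limma adjusted p = 1.20e-07). Its second probe set was too dim to test and read -0.40, and the mean of both gave -0.98 (limma adjusted p = 0.00460). Uchl1, a neuronal ubiquitin hydrolase, was higher by 1.97 (SE 0.40, limma adjusted p = 0.00305), or by 1.33 with the floor, and was dim in mucosa. The neurofilament gene Nefh stood at 8.64 against 8.35 and did not pass (limma adjusted p = 0.219). The axon genes Nefl, Nefm, Prph and Calca were dim on all 6 arrays, and Nefl was at 0 on mucosal array 3. Without overlap, Nefm lay higher in peri-implant tissue (3.99 against 1.32) and Calca lower (2.56 against 5.62). Neither was tested, and with the floor both differences were 0. The summed signal of the list was 1610 to 1909 in peri-implant tissue and 2796 to 2983 in mucosa. Tubb3, the brightest gene of the list, makes up much of this sum and sets its direction. The sum therefore does not show a fall of the axon genes as a set, and the median difference of the 6 tested genes was 0.26.

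Markers of other cell types that can express the members were read as well. Of leukocyte genes 8 of 8 were higher (for example Cd53 by 1.91, Coro1a by 2.53 and Lcp1 by 2.06), with summed signals of 8749 to 9304 against 2682 to 2755. Of 8 fibroblast genes 6 were lower and 2 higher, at 41045 to 42838 against 65048 to 71235, with Col1a1, Col3a1 and Lum lower by 0.83, 0.83 and 0.86. The higher genes, Dcn and Fn1, were not called without the variance trend, nor was Fn1 after median centring (limma adjusted p up to 0.0638 and 0.0578). Of 7 tested pericyte and smooth muscle genes 3 were lower and 1 higher, at 933 to 1136 against 1362 to 1465. Cspg4, Pdgfrb and Acta2 fell by 2.07, 1.12 and 0.66, and Rgs5 was higher by 0.85. Averaged over its probe sets, Pdgfrb gave -0.20 and was not called (limma adjusted p = 0.754), and Acta2 was not called in 7 of 14 alternatives (limma adjusted p up to 0.153), among them the fits without peri-implant array 2 or 3 or mucosal array 2 or 3. The other Pdgfrb probe sets read -0.48 (not called) and 0.98 (too dim to test). Of 7 keratinocyte genes 2 were higher and 2 lower, with overlapping sums of 169246 to 221874 and 184086 to 243393. Krt15 was higher by 3.65, Krt5 fell by 0.50 and Itgb4 is given above. Cdh1 was higher by 0.34, but gave 0.0059 with the mean of its probe sets and was not called there (limma adjusted p = 0.996) or without the variance trend. The other Cdh1 probe set was too dim to test, at 2.92 in peri-implant tissue and 3.25 in mucosa. Krt5, Krt14 and Dsp came within 0.56, 0.59 and 0.32 of the highest signal on their arrays, so their differences and this sum share the limit named for Emp1. Of 7 endothelial genes 1 was higher and 0 lower, at 1348 to 1395 against 1013 to 1207. The called gene, Kdr, was higher by 0.70, with Tek and Vwf not called. Kdr was not called in 6 of 14 alternatives: with the mean of its probe sets (difference 0.14, limma adjusted p = 0.870) and without any 1 of the 3 peri-implant arrays, mucosal array 2 or mucosal array 3. The other Kdr probe set was too dim to test and read -0.42.

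Melanocyte genes, a source of Sox10 and S100b, were higher in 0 and lower in 0 of 2 tested, Dct and Mitf, with 5 of 7 dim in both tissues and overlapping sums of 240 to 307 and 292 to 399. The groups did not overlap for Dct (difference -0.76) or for Mitf (0.60). Tyr and Mlana, dim on all 6 arrays, lay lower in peri-implant tissue without overlap, and with the floor both differences were 0. Adipocyte genes, another source of S100b, were higher in 1 of 4 tested and lower in 0, at 693 to 751 against 481 to 496. Fabp4 was higher by 1.26, Lpl and Cfd were not called, and Adipoq, Plin1, Cidec and Lep were dim in both tissues. Salivary gland genes were higher in 2 of 4 tested and lower in 2, at 20767 to 21308 against 18947 to 19120, and 5 of the 9 measured were dim in both tissues (Amy1, Bpifa2, Prb1, Oprpn and Smr3a). Krt7 and Lpo were higher by 2.12 and 2.16 and Aqp5 fell by 1.90. The widely expressed Cst3, the brightest of the list, fell by 0.26 and was not called in 6 of 14 alternatives (limma adjusted p up to 0.0975), among them the fits without any 1 of the 3 peri-implant arrays. Skeletal muscle gave 1 tested gene, Myh1, which stood at 11.78 against 11.79 and was not called, and 5 of the 8 measured were dim in both tissues. Whether this Myh1 signal came from muscle was not tested. The sums of 3410 to 3847 against 3789 to 3967 were nearly all Myh1 signal and do not read the other muscle genes. Acta1, skeletal muscle actin, read 6.90, 6.97 and 6.93 in mucosa and 2.52, 1.55 and 4.53 in peri-implant tissue, without overlap, and its difference with the floor was -1.04. Its mean lay below the filter, so it was not tested. The values of Actn3 and Myh2 also lay lower in peri-implant tissue without overlap, with differences of -0.17 and 0 once dim values were raised to the floor. In whole tissue, fewer cells of a type and less RNA per cell cannot be told apart. The part of fibroblasts, pericytes and leukocytes in the differences of Pmp22, Mbp and Emp3 was not tested.

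**Figure D4:**
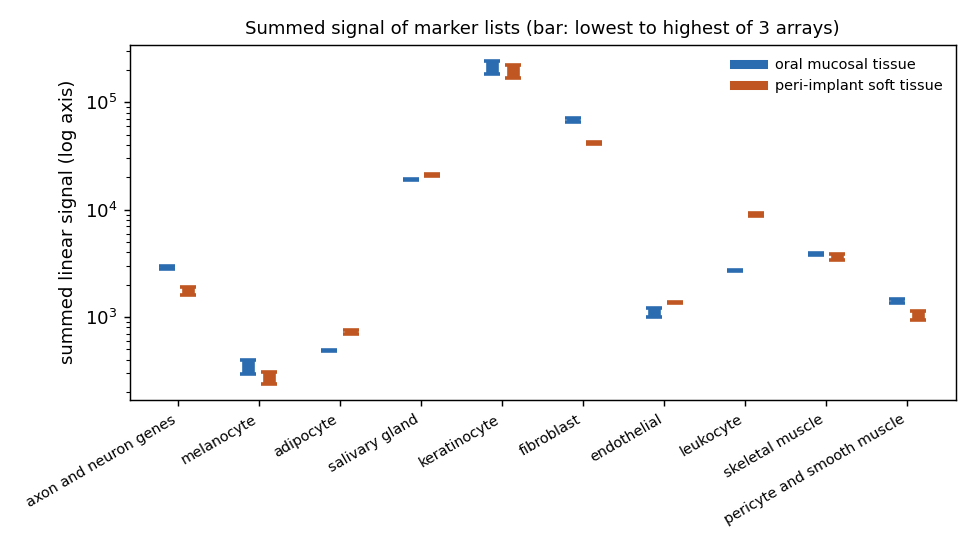
Summed linear signal of 10 marker lists (log axis), drawn from the lowest to the highest of 3 arrays in each tissue. Leukocyte sums lie higher and fibroblast sums lower in peri-implant tissue, and melanocyte and keratinocyte sums overlap between tissues.

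The genes whose pattern over the 6 arrays was nearest to that of Pmp22 were found by the root mean square difference between profiles centred on their own means. S100a3, a calcium-binding protein of hair cuticle, was nearest at 0.056, with 9.98, 9.86 and 10.05 in mucosa and 7.59, 7.15 and 7.27 in peri-implant tissue. Cd55, which limits complement, followed at 0.13. Pla2g4a, cytosolic phospholipase A2, came at 0.16, the plakin Eppk1 at 0.20 and tenascin-C, Tnc, at 0.23. All 5 were lower in peri-implant tissue, where Eppk1 fell by 2.35 and Tnc by 2.69, as a small distance to Pmp22 requires. Nearest to the brightest Mbp probe set were Thbs2, Mbnl1, LOC102546843, Slc39a14 and Adcy3, at 0.090 to 0.11. Of these LOC102546843 did not pass the test (limma adjusted p = 0.132).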

How the data were processed

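Total RNA from each of 6 samples was amplified, labelled with biotin (GeneChip 3′ IVT Express kit, per the labels' protocols) and put on 1 array per sample. The authors deposited log2 signals for 31099 probe sets, 57 of them controls. They look scaled per array, since the linear mean, trimmed by 2% at both ends, was about 500.2 on each. For software and background method, the sources used here give none. Values were analysed as deposited, with no detection calls. The number of arrays limits the precision.

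Symbols came from the array annotation, and probe sets listed with several (436) or without any (9780) stayed unnamed in the tests. Tests used limma 3.58.1 under R 4.3.3 (linear fit, two-sided moderated test, eBayes variance trend) on the 18625 probe sets whose mean exceeded the 40th percentile, with Benjamini-Hochberg adjustment over all of them and a threshold of 0.05. The fit was tested on simulated data.

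The members and lists were chosen with earlier results of these data known. Named were the members, up to 3 genes with the smallest p per list, a fixed set (Mag, Egr2, Erbb3, Gap43, Nefl, Nefm, Prph, Nrg1 and Perp, with some others not reported here) and the 5 genes nearest to Pmp22 and to Mbp. Others that complete a count, and dim or near-ceiling genes of the cell type lists, were named after their values were seen. Alternatives were quantile normalisation, median centring, no filter, a filter at the 60th percentile, the floor, no variance trend, the mean of probe sets, each other probe set, a replicate block and leaving out each array. When an array was left out, the filter and the fit were redone on the other 5.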

Additional observations from a re-analysis of the deposited data

How the results depend on the processing

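The count of 3 called members was the same under all 14 alternatives, although with the mean of probe sets Emp1 was called in place of Mbp. Pmp22 was called in all 14, with a difference of -2.67 to -2.10 and an adjusted p of 1.74e-11 to 2.90e-04 (limma), and Emp3 likewise at -0.77 to -0.70. Mbp was called in 13 of 14. Its second probe set reversed the sign, at 0.24, and in that probe set the difference did not pass. The count of other myelin and Schwann cell pathway genes called was 17 of 38 tested. It was 11 with the mean of probe sets, 13 without the variance trend, and 16 to 18 when 1 array was left out. Over all genes, 1606 were called higher and 1161 lower in the main fit. These numbers were 1286 and 963 with the mean of probe sets, and 1098 and 718 without the variance trend. The cause was not tested. Members whose groups did not overlap numbered 3, with 3 or 4 under the other settings and 4 to 5 when 1 array was left out, since fewer arrays separate more readily. With the replicate number as a block the counts were 3 members and 18 pathway genes, with no member's call changed. Correlations of deviations were 0.013, -0.079 and 0.027 for same-numbered arrays and -0.063 to 0.050 for the others. With 3 arrays per group this cannot decide whether equal numbers mark the same rat. The main fit used no pairing. Signal near the dim floor limits S100b, Sox10 and Ngfr, whose differences were 0, 0 and -0.09 with the floor, and signal near the top of the array limits Emp1, Perp, Krt5, Krt14 and Dsp.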
